A study of Homo sapiens with 6 samples.

Results

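The genes described here are 38 members of the ATF4 amino acid response in HEC-1B cells, which were derived from a human endometrioid carcinoma: 10 genes of ATF4 itself and its stress regulators, 6 of serine and one-carbon synthesis, 5 of asparagine, cysteine and proline synthesis, 5 amino acid transporters and 12 cytosolic aminoacyl-tRNA synthetases. They were taken by symbol from 23284 genes listed in each of 6 bulk RNA-seq libraries. Cells had been sorted by aldehyde dehydrogenase (ALDH), a marker of stem-like cancer cells, to compare cultures that do and do not turn faster from low to high ALDH1A1. The labels give 3 groups of 2 libraries. The first holds HEC-1B cells of high ALDH potential labelled ALDH-high accel (high-potential accelerated), the second HEC-1B cells without that label, also ALDH-high accel (HEC-1B accelerated), and the third HEC-1B cells labelled ALDH-high to low (high-to-low). All 3 groups derive from the same line, and the labels name no drug, genotype or time. No high-to-low library of the high-potential cells is among these samples, so in a comparison of high-potential accelerated with high-to-low cells the potential and the transition cannot be told apart. Nothing in the labels says that replicates came from separate cultures, so the spread behind each p-value may be technical.

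ATF4 is a transcription factor made when amino acid shortage, endoplasmic reticulum stress or other stresses lead kinases to phosphorylate the translation initiation factor eIF2. General translation then slows, while the ATF4 messenger, through open reading frames in its leader, is translated more. Together with C/EBP partners, ATF4 switches on genes that make, import and charge amino acids, and a group of stress regulators that feed back on the response. Tumour cells often rely on this programme to supply serine, glycine and asparagine for growth. The libraries measure messenger RNA, and neither ATF4 protein nor eIF2 phosphorylation was measured.

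Values are FPKM, fragments per kilobase of transcript scaled to library size. Between 14786 and 15386 genes were above 0 in a library. Relative depth, set to 1 in high-potential replicate 1, was lowest at 0.807 in high-potential replicate 2 and highest at 1.07 in high-to-low replicate 1, and the FPKM of 1 fragment per kilobase was 0.0928 to 0.124. Small RNA genes held 9.04 to 18.7% of the summed FPKM, the most in high-potential replicate 2. The epithelial markers KRT8, KRT18, KRT19 and PAX8 lay between 16.9 and 464 FPKM, EPCAM between 2.16 and 10.6 FPKM, and CDH1 did not exceed 0.0868 FPKM. The summed level of 6 leukocyte, 6 fibroblast or 5 endothelial markers was at most 1.07 FPKM in any library. All 38 members passed the filter of at least 1 FPKM in at least 2 libraries, which kept 12135 genes.

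The members were low together in high-potential replicate 2. Their summed level was 2679 FPKM there, against 4552 FPKM in high-potential replicate 1, 4084 and 5086 FPKM in the HEC-1B accelerated libraries and 4648 and 4753 FPKM in high-to-low libraries. Between the high-potential libraries all 38 members were lower in replicate 2, where 50.2% of all kept genes were lower. The median member difference (replicate 2 minus replicate 1, log2(FPKM + 1)) was -0.73, and that of all kept genes was -0.0018. Replicate 2 was lower by at least 1 on this scale in 14 members, against 2.7% of kept genes. In 34 members replicate 2 was the lowest of all 6 libraries, which held for 21.7% of kept genes. The exceptions were CEBPB and SLC38A2, lowest in high-to-low replicate 2, and TARS and LARS, lowest in HEC-1B accelerated replicate 1. These are differences between single libraries, so no test applies to them, and in bulk samples fewer cells expressing a gene and less of its RNA per cell cannot be told apart. The members were chosen with earlier results of these data known, so the counts are a description.

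**Figure D1:**
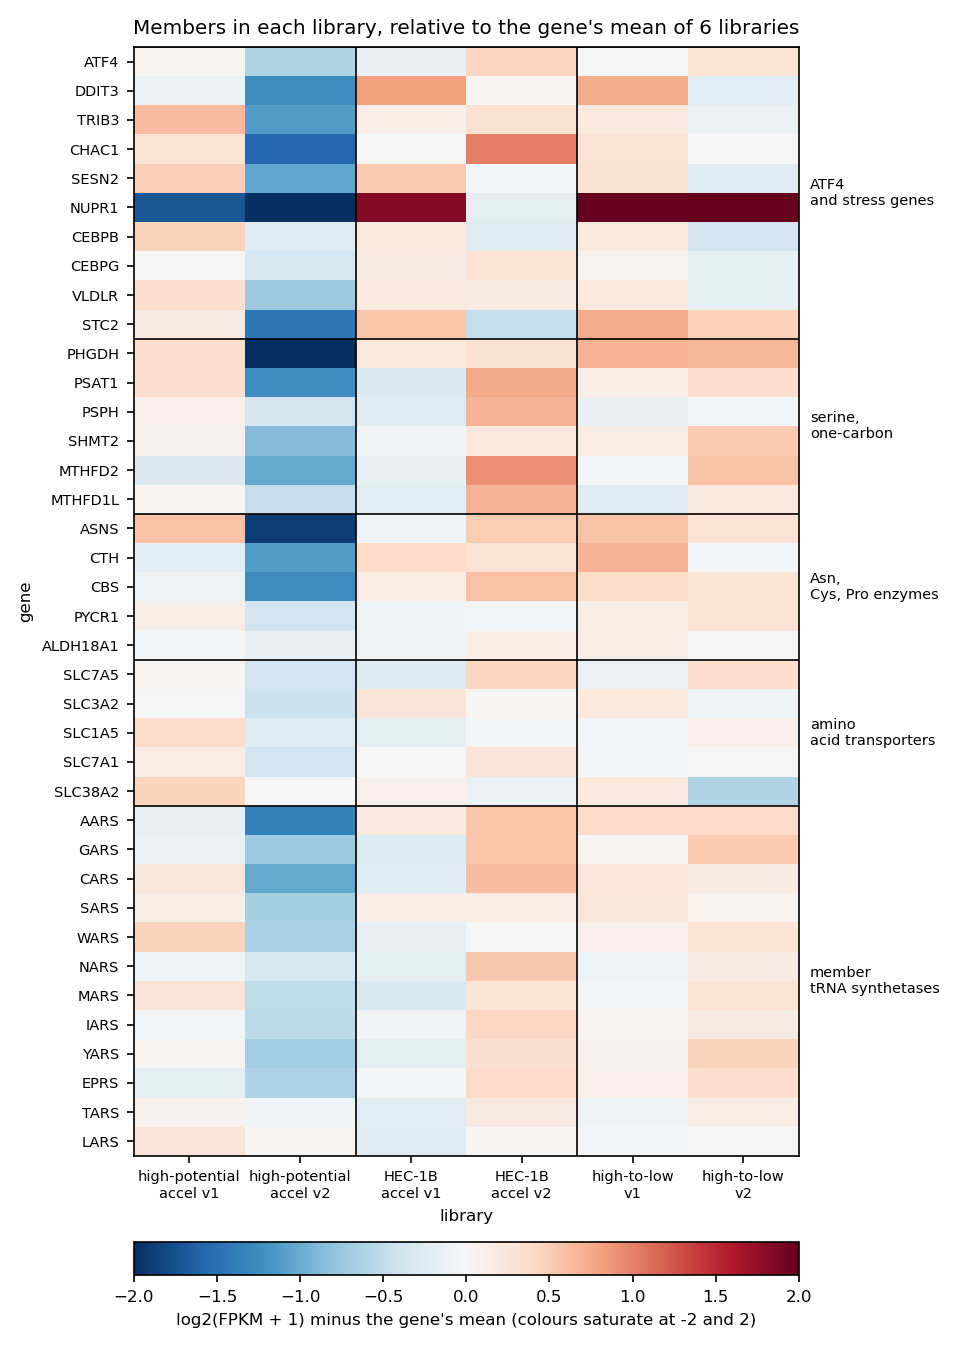
Level of the 38 members (rows, by role) in the 6 libraries (columns; v1 and v2 are replicates 1 and 2), as log2(FPKM + 1) minus the gene's mean over the libraries; red is above and blue below that mean. The column of high-potential replicate 2 is the lowest of the row in 34 of 38 members, and NUPR1 is low in both high-potential libraries.

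Replicate 2 was also the shallowest library and the one with the largest small RNA share. The part of depth in the result was not tested. When each library was rescaled to equal totals without small RNA genes, all 38 members remained lower in replicate 2 with a median of -0.79, and the median of all kept genes was -0.06. ALDH1A1, the sorted marker, differed little between the same libraries, at 304 FPKM in replicate 2 and 352.5 FPKM in replicate 1.

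Among the regulators, ATF4 itself had 219.5 FPKM in high-potential replicate 1 and 141 FPKM in replicate 2, against 194 and 289 FPKM in HEC-1B accelerated and 215 and 261 FPKM in high-to-low libraries. High-potential replicate 2 was the lowest library, and replicate 1 lay within the range of the other groups. The difference of -0.63 (log2) between the high-potential libraries compares with a median of -1.32 over the 10 genes of this role. In 7 of the 10, replicate 2 was lower by at least 1, namely in DDIT3, TRIB3, CHAC1, SESN2, NUPR1, VLDLR and STC2.

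TRIB3, a pseudokinase that restrains ATF4 activity, had 111 FPKM in high-potential replicate 1 and 32.3 FPKM in replicate 2, against 78.0 and 87.8 FPKM in HEC-1B accelerated and 81.25 and 64.5 FPKM in high-to-low libraries. Its highest and its lowest value were thus both in high-potential cells. CHAC1, which degrades glutathione, had 17.0 and 4.0 FPKM in high-potential replicates 1 and 2, against 13.95 and 28.7 FPKM in HEC-1B accelerated and 17.0 and 13.8 FPKM in high-to-low libraries. Replicate 2 stood below the other 5 libraries, which spanned 13.8 to 28.7 FPKM. STC2, a secreted glycoprotein induced by stress, had 7.08 and 1.62 FPKM in high-potential replicates 1 and 2, against 9.53 and 4.07 FPKM in HEC-1B accelerated and 11.0 and 8.84 FPKM in high-to-low libraries. Both high-potential libraries lay below both high-to-low libraries, and they overlapped the HEC-1B accelerated range. The STC2 value of high-potential replicate 2 may rest on few fragments. It stands for 6.19 if the transcript is the shortest coding one of the GENCODE annotation (473 bases) and 70 if it is the longest (5353 bases).

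DDIT3, which encodes the pro-apoptotic factor CHOP, followed another order. It had 111 and 50.6 FPKM in high-potential replicates 1 and 2, against 214 and 124 FPKM in HEC-1B accelerated and 202 and 104 FPKM in high-to-low libraries. Replicate 2 was lower than replicate 1 in each group, by 1.11, 0.79 and 0.95 on the log2 scale. Both high-potential libraries lay below both HEC-1B accelerated libraries, and replicate 1 lay just above high-to-low replicate 2. SESN2, which senses leucine and restrains mTORC1, was likewise lower in replicate 2 of each group, with 6.99 FPKM in high-potential replicate 2 and 12.8 to 22.5 FPKM in the other libraries. CEBPG and CEBPB, C/EBP factors that pair with ATF4, were lower in high-potential replicate 2 than in replicate 1 by 0.36 and 0.69, and VLDLR, a lipoprotein receptor, by 1.08.

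NUPR1, a small stress-induced chromatin protein, was the member that separated the groups most. It had 7.93 FPKM in high-potential replicate 1 and 0.520 FPKM in replicate 2, against 104 and 24.6 FPKM in the HEC-1B accelerated libraries and 126 and 136 FPKM in high-to-low libraries. The groups did not overlap: both high-potential libraries were below both HEC-1B accelerated libraries, and these below both high-to-low libraries. The HEC-1B accelerated libraries were unlike in ALDH1A1, at 26.7 FPKM in replicate 1 and 317 FPKM in replicate 2. High-to-low libraries had 28.4 and 9.45 FPKM of ALDH1A1, and high-potential libraries 352.5 and 304 FPKM. Each library with high ALDH1A1 had less NUPR1 than each with low ALDH1A1, and a link was not tested. Mean NUPR1 levels were 4.225 ± 5.24 FPKM in high-potential accelerated, 64.3 ± 56.15 FPKM in HEC-1B accelerated and 131 ± 6.63 FPKM in high-to-low cells (SD, n = 2 each). The value of high-potential replicate 2 rests on few fragments, 2.3 if the transcript is the shortest coding one of the GENCODE annotation (550 bases) and 23 if it is the longest (5491 bases). NUPR1 ranked 20th lowest of 12135 genes in the difference between the high-potential libraries, next to PHGDH at 19 and ASNS at 21.

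**Figure D2:**
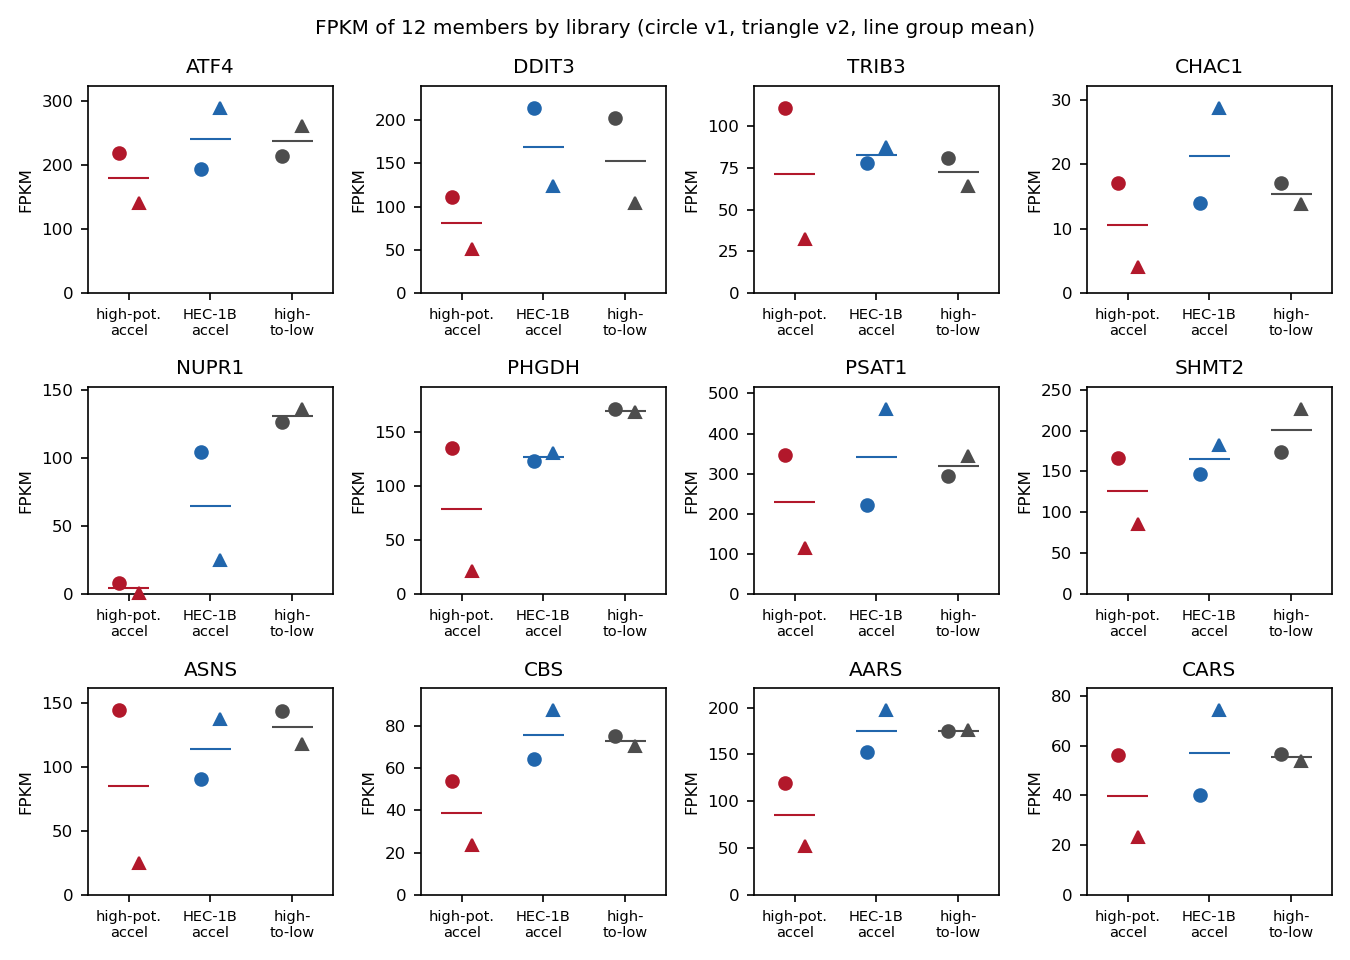
FPKM of 12 members (linear axes from 0), with circles for replicate 1, triangles for replicate 2 and lines for group means; groups run from high-potential accelerated to HEC-1B accelerated to high-to-low. In each of the 12 panels the high-potential triangle is the lowest point, and in NUPR1, CBS and AARS the high-potential circle is also below the 4 libraries of the other groups.

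Serine is made from a glycolytic intermediate by PHGDH, PSAT1 and PSPH, and the mitochondrial enzymes SHMT2, MTHFD2 and MTHFD1L then pass its carbon to folate. All 6 were lowest in high-potential replicate 2, with a summed level of 295 FPKM there, against 761 FPKM in replicate 1, 602 and 996 FPKM in HEC-1B accelerated and 756 and 899 FPKM in high-to-low libraries. PHGDH, the entry enzyme, had 136 FPKM in high-potential replicate 1 and 21.6 FPKM in replicate 2, against 123 and 131 FPKM in HEC-1B accelerated and 171.5 and 169 FPKM in high-to-low libraries. Replicate 2 was at 0.159 of replicate 1, while the other 5 libraries lay within 123 to 171.5 FPKM.

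PSAT1, the aminotransferase of the pathway, had 345 and 114 FPKM in high-potential replicates 1 and 2, against 223 and 461 FPKM in HEC-1B accelerated and 294 and 343 FPKM in high-to-low libraries. SHMT2, which splits serine into glycine and a one-carbon unit, had 166 and 85.8 FPKM in high-potential replicates 1 and 2, against 147 and 182.5 FPKM in HEC-1B accelerated and 174 and 226 FPKM in high-to-low libraries. For both genes, high-potential replicate 1 lay within the range of the other groups and replicate 2 below it. MTHFD2, a mitochondrial folate dehydrogenase, had 59.6 and 35.4 FPKM in high-potential replicates 1 and 2, against 65.5 and 138 FPKM in HEC-1B accelerated and 70.9 and 109 FPKM in high-to-low libraries. Both its high-potential values were below all 4 others. PSPH, the phosphatase of the last step, and MTHFD1L, which releases formate, were lower in high-potential replicate 2 than in replicate 1 by 0.47 and 0.52. PSPH has a near-identical pseudogene, PSPHP1, so its reads may be split between them.

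ASNS, which makes asparagine from aspartate, had 145 FPKM in high-potential replicate 1 and 25.4 FPKM in replicate 2, against 90.7 and 138 FPKM in HEC-1B accelerated and 144 and 119 FPKM in high-to-low libraries. High-potential cells again held both the highest and the lowest value, and replicate 2 was at 0.176 of replicate 1. CBS, the first enzyme of the path from homocysteine to cysteine, had 53.95 and 23.65 FPKM in high-potential replicates 1 and 2, against 64.1 and 87.4 FPKM in HEC-1B accelerated and 75.05 and 70.35 FPKM in high-to-low libraries. CTH, the second enzyme of that path, had 15.2 and 7.64 FPKM in high-potential replicates 1 and 2, against 23.9 and 22.0 FPKM in HEC-1B accelerated and 28.96 and 17.4 FPKM in high-to-low libraries. In CBS and CTH both high-potential libraries were below all 4 others. The proline enzymes differed less. PYCR1 had 97.75 and 69.3 FPKM in high-potential replicates 1 and 2, against 85.6 and 86.9 FPKM in HEC-1B accelerated and 98.3 and 110.0 FPKM in high-to-low libraries, so its high-potential values lay below the high-to-low ones and overlapped the others. ALDH18A1, which makes the proline precursor, stayed within 53.3 to 65.2 FPKM in the 6 libraries.

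None of the 5 transporters was lower by as much as 1 between the high-potential libraries, with differences from -0.61 to -0.41. SLC1A5, a glutamine and neutral amino acid carrier, had 203 and 133 FPKM in high-potential replicates 1 and 2, against 137 and 155 FPKM in HEC-1B accelerated and 155 and 169 FPKM in high-to-low libraries. SLC7A1, the arginine and lysine carrier, had 16.3 and 10.9 FPKM in high-potential replicates 1 and 2, against 14.6 and 17.7 FPKM in HEC-1B accelerated and 14.3 and 14.7 FPKM in high-to-low libraries. For both, the group ranges overlapped. SLC3A2, the heavy chain that carries the leucine transporter SLC7A5 to the membrane, had 188 and 139.6 FPKM in high-potential replicates 1 and 2, against 224 and 195 FPKM in HEC-1B accelerated and 219 and 177 FPKM in high-to-low libraries. Both its high-potential values were below both HEC-1B accelerated values and overlapped the high-to-low range. SLC38A2, a carrier of small neutral amino acids, had 479 and 351 FPKM in high-potential replicates 1 and 2, against 376 and 319 FPKM in HEC-1B accelerated and 402 and 231 FPKM in high-to-low libraries. It was the transporter with the highest level per length, and its lowest value was in high-to-low replicate 2.

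The 12 cytosolic synthetases, each of which joins an amino acid to its tRNA, summed to 1871 FPKM in high-potential replicate 1 and 1226 FPKM in replicate 2, against 1623 and 2264 FPKM in HEC-1B accelerated and 1866 and 2144 FPKM in high-to-low libraries. All 12 were lower in high-potential replicate 2 than in replicate 1, with a median of -0.66, from -1.24 for CARS (cysteine) to -0.18 for TARS (threonine). AARS, for alanine, had 119.5 and 52.1 FPKM in high-potential replicates 1 and 2, against 153 and 197 FPKM in HEC-1B accelerated and 175.0 and 176 FPKM in high-to-low libraries, and both high-potential values were below all 4 others. CARS had 56.1 and 23.1 FPKM in high-potential replicates 1 and 2, against 40.2 and 74.2 FPKM in HEC-1B accelerated and 56.7 and 53.9 FPKM in high-to-low libraries. Its replicate 1 value lay inside the range of the other groups.

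SARS, for serine, varied little outside high-potential replicate 2, with 209.5 and 121 FPKM in high-potential replicates 1 and 2, against 208 and 212 FPKM in HEC-1B accelerated and 224.5 and 203 FPKM in high-to-low libraries. WARS, for tryptophan, is also induced by interferon gamma, and had 181 and 84.4 FPKM in high-potential replicates 1 and 2, against 118.5 and 131.5 FPKM in HEC-1B accelerated and 142 and 160.1 FPKM in high-to-low libraries. Its highest and its lowest value were both in high-potential cells. The 6 kept genes of a list of 9 interferon gamma induced genes were each higher in high-potential replicate 2 than in replicate 1, with a median of 0.45, opposite in sign to WARS. The part of interferon in the WARS difference was not tested. GARS, NARS, MARS, IARS, YARS, EPRS, TARS and LARS, for glycine, asparagine, methionine, isoleucine, tyrosine, glutamate with proline, threonine and leucine, were lower in replicate 2 by 0.18 to 0.76.

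C/EBP-ATF response elements, to which ATF4 binds with a C/EBP partner, share the core TGATGNAA, and ASNS carries a well-studied one. RefSeq promoter windows (GRCh38.p14, 250 bases before to 50 after a start, 300 in all) were searched for it on both strands, where the opposite strand reads TTNCATCA. A window was found for 32 members, and 14 of these (43.8%) held a match, against 4.46% of 27305 genes with a window (3.62% of 35116 windows). No window was found for NUPR1, PSPH, SHMT2, PYCR1, YARS and LARS. The synthetase members held it in 7 of 10 genes with a window, the other cytosolic synthetases in 0 of 6 and the mitochondrial ones in 1 of 14. The members were listed as genes of this response, so the share is a description, and a match is a run of letters and no measured binding. The stretches show the match in capitals in ASNS and CHAC1, which were far lower in high-potential replicate 2 than in replicate 1, and in 6 synthetases, from AARS and CARS, which differed most, over MARS and IARS to NARS and TARS, which differed little.
ASNS: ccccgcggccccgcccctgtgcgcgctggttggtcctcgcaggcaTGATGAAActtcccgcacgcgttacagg
CHAC1: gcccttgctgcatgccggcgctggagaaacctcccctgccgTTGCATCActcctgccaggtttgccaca
AARS: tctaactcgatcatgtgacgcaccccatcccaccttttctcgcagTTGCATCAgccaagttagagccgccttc
CARS: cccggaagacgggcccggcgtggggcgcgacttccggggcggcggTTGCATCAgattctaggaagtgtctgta
MARS: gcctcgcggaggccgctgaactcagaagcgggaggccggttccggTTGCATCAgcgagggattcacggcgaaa
IARS: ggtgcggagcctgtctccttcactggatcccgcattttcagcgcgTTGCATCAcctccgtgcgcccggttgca
NARS: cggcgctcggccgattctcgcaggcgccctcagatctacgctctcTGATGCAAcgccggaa
TARS: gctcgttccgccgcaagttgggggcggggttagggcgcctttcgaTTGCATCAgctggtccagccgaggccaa

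In GRCh38.p14 these lie at chr7:97872449-97872521 (ASNS, minus strand), chr15:40953221-40953289 (CHAC1, plus), chr16:70289666-70289738 (AARS, minus), chr11:3057398-3057470 (CARS, minus), chr12:57488019-57488091 (MARS, plus), chr9:92293683-92293755 (IARS, minus), chr18:57621807-57621867 (NARS, minus) and chr5:33440922-33440994 (TARS, plus). Each is written 5′ to 3′ along the gene. Of these 8, ASNS and NARS read TGATGNAA in the direction of the gene, and the other 6 read its opposite strand. The 14 members with a match had a median of -0.57 between the high-potential libraries and the 18 with a window and no match -0.99. The matches were uneven by role. Of the 14, 7 were synthetases (role median -0.66) and 3 transporters (-0.45), while 2 of 9 stress regulators with a window held one (-1.32). The part of role in the difference of these medians was not tested.

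Genes outside the members were compared by list. Members and lists were chosen with earlier results of these data known, so contrasts between lists are descriptions only. Of 21 further genes described as ATF4 targets, all were lower in high-potential replicate 2 than in replicate 1, with a median of -0.76, and 8 by at least 1. They ranged from -1.89 for GDF15, a secreted stress cytokine with 78.7 FPKM in replicate 2 and 295 FPKM in replicate 1, to -0.11 for the glutamine carrier SLC38A1. GDF15 differed as much between the high-to-low libraries (-1.83), and its lowest value, 62.9 FPKM, was in high-to-low replicate 2. Of the 21 genes, 12 were lowest in high-potential replicate 2, against 21.7% of kept genes. In 10, replicate 2 was below replicate 1 in all 3 groups, against 24.5% of kept genes. Their medians were -0.03 in HEC-1B accelerated and -0.30 in high-to-low cells. Between the high-potential libraries, by contrast, only 1 of 8 cytosolic synthetases that are not members was lower in replicate 2. The median of these 8 was 0.24. They ranged from QARS (glutamine) at -0.0078 to RARS (arginine) at 0.56, so the highest difference of the 12 synthetase members, -0.18, lay below the lowest of these 8. Mitochondrial synthetases were lower in 6 of 17 (median 0.03), from PARS2 (proline) at -0.46 to CARS2 (cysteine) at 0.47.

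In lists of other arms of the stress pathway and of related metabolism the differences lay on both sides of 0. The eIF2 kinases, eIF2B subunits and related genes were lower in 5 of 13 (median 0.12). They ranged from IMPACT, an inhibitor of the amino acid sensing kinase, at -1.02 to EIF2S1, the eIF2 alpha subunit, at 0.40. Further folate enzymes and the glycine cleavage enzymes were lower in 5 of 11 (median 0.01), from SHMT1, the cytosolic counterpart of SHMT2, at -0.57 to TYMS, thymidylate synthase, at 0.88. Chaperones and other genes of the unfolded protein response were lower in 7 of 13 (median -0.09), from XBP1, a factor of that response, at -1.25 to CRELD2 at 0.77. None of these differences has a test, since each compares a pair of libraries.

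**Figure D3:**
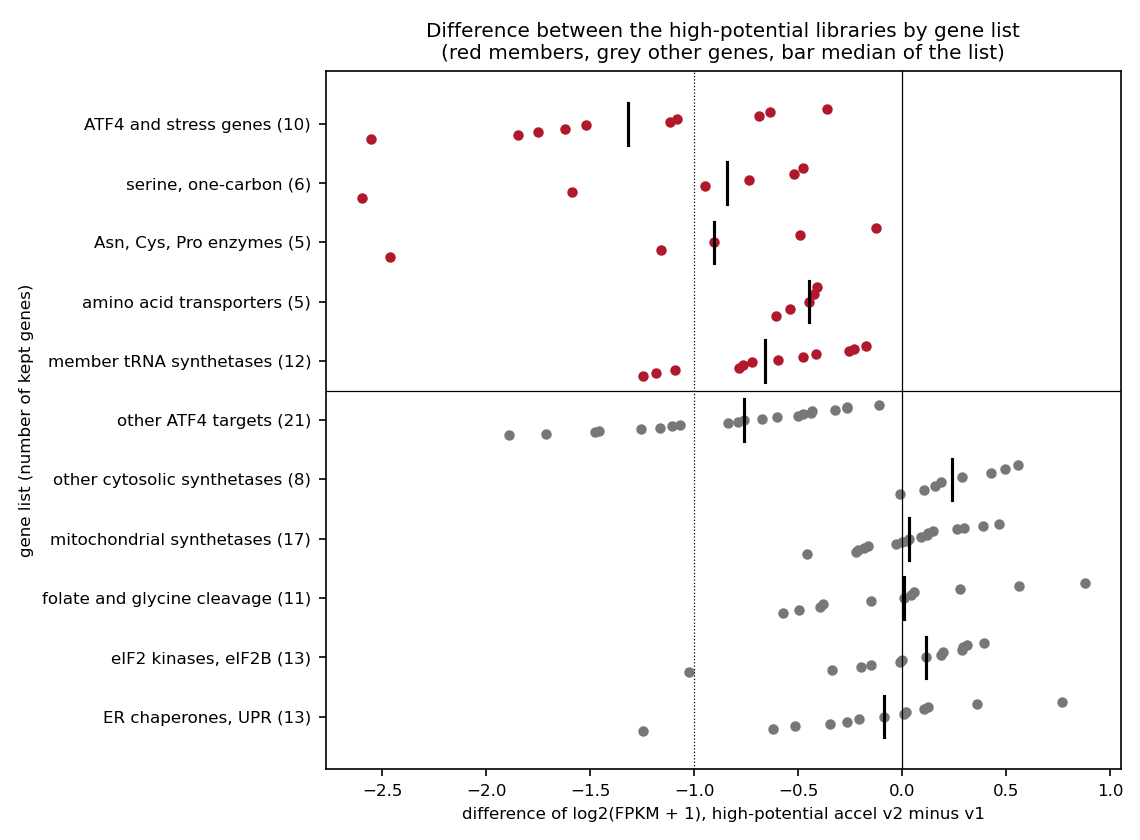
Difference of log2(FPKM + 1) between the high-potential libraries, replicate 2 minus replicate 1 (horizontal), for each gene of the 5 member roles (red) and 6 other lists (grey); bars are list medians and the dotted line marks -1. All 38 members and all 21 other ATF4 targets lie left of 0, while the medians of the 5 remaining lists plotted lie between -0.09 and 0.24.

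Lists of other kinds also differed between the high-potential libraries. Of 10 proliferation genes, 7 were higher in replicate 2, with a median of 0.68 and a range from -0.13 in MCM2 to 1.09 in CCNB1. This direction was not particular to high-potential cells. All 10 were higher in replicate 2 of HEC-1B accelerated cells (median 0.80) and of high-to-low cells (median 0.60). Between the high-potential libraries all 5 kept epithelial markers were lower in replicate 2, with a median of -0.40 and a range from -0.74 in KRT19 to -0.07 in KRT8. In replicate 2 of HEC-1B accelerated cells 3 of the 5 were lower (median -0.32), and of high-to-low cells 2 (median 0.25). KRT19 was lower in both, at -1.35 and -1.12. The part of these lists in the members' difference was not tested.

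In the other groups the members did not all lie on one side. The HEC-1B accelerated libraries also differed in ALDH1A1, at 26.7 FPKM in replicate 1 and 317 FPKM in replicate 2. The part of this in their member differences was not tested. Between the HEC-1B accelerated libraries 29 of 38 members were higher in replicate 2, against 49.9% of kept genes, with a median of 0.29. These included 6 of 6 serine and one-carbon genes (median 0.91) and 12 of 12 synthetases (median 0.46), whereas 6 of 10 stress regulators were lower (median -0.24). The cytosolic synthetases that are not members were higher there as well, in 8 of 8, with a median of 0.57. They were also higher in replicate 2 of high-to-low cells, in 8 of 8, with a median of 0.45. Between the high-to-low libraries 17 of 38 members were lower in replicate 2, against 49.9% of kept genes, and the median was 0.03. There 8 of 10 stress regulators were lower (median -0.31). Higher were 5 of 6 serine and one-carbon genes (median 0.30) and 10 of 12 synthetases (median 0.21). The median of the stress regulators was thus below 0 in each group. Replicate 2 was below replicate 1 in all 3 groups in 8 members (DDIT3, SESN2, CEBPB, VLDLR, STC2, CTH, SLC3A2 and SLC38A2), against 24.5% of kept genes.

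**Figure D4:**
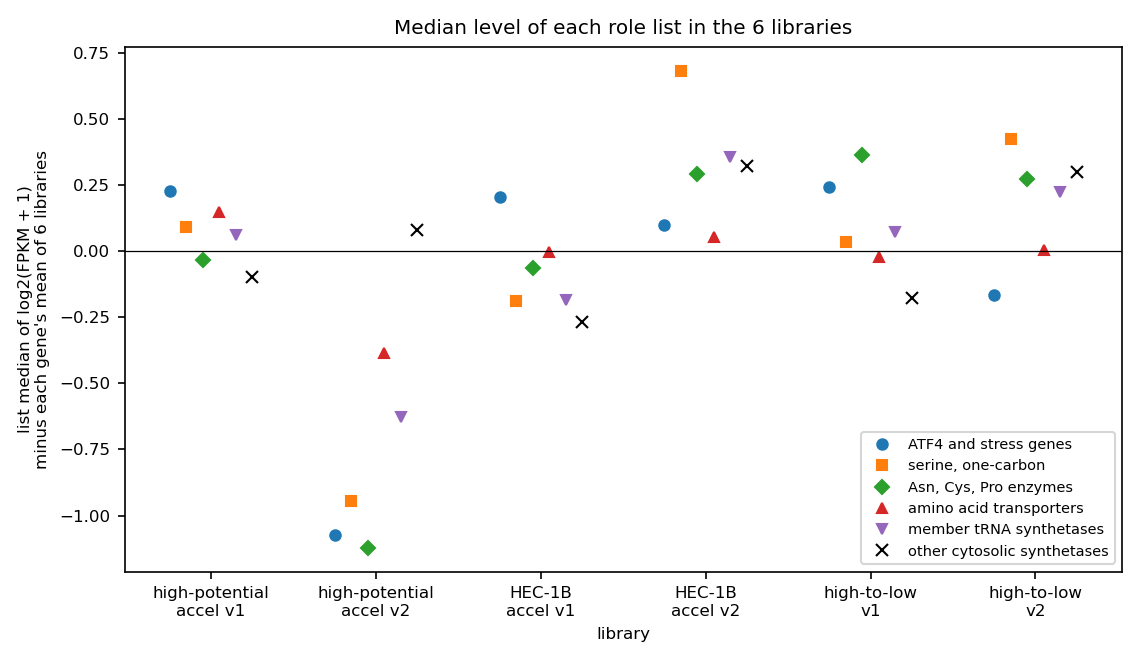
Median over each role list of log2(FPKM + 1) minus the gene's mean of 6 libraries (vertical), by library (horizontal; v1 and v2 are replicates 1 and 2). All 5 member roles are lowest in high-potential replicate 2, from -1.12 to -0.38, where the other cytosolic synthetases stand at 0.08, and serine and one-carbon genes are highest in HEC-1B accelerated replicate 2 at 0.68.

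Compared as groups, high-potential accelerated and HEC-1B accelerated cells had no member past the test in the fit by group alone. The limma fit across all kept genes, with Benjamini-Hochberg adjusted p, called 60 of 12135 genes (0.494%) and 0 of 38 members. At an unadjusted p under 0.05, 4 members were lower in high-potential cells (NUPR1, AARS, CBS and CTH), against 8.63% of kept genes, and 0 were higher. Both high-potential libraries lay below both HEC-1B accelerated libraries in 9 members, against 22.3% of kept genes, and above them in LARS alone, against 21.1%. The fitted difference was below 0 in 33 members (median -0.43), against 6016 of 12135 kept genes (median 0.005). Without high-potential replicate 2 it was below 0 in 20 members with a median of -0.02, and without replicate 1 the median was -0.77. Leaving out any 1 of the 6 libraries left 4 to 39 genes called. The sample descriptions end in a number with 2 different beginnings, whose meaning the labels do not give: one is shared by replicate 2 of both accelerated groups, the other by the 4 remaining libraries. Between the replicate 2 libraries, high-potential minus HEC-1B accelerated had a member median of -0.9986 with 35 members lower, and between the replicate 1 libraries it was 0.16 with 11 lower, while 49.7% and 49.6% of kept genes were lower. The lower median thus did not hold within the 4 libraries that share a beginning.

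NUPR1 differed most in this fit, by -3.82 on the log2 scale (SE 0.94, adjusted p = 0.157), and by -2.54 without high-potential replicate 2. With the beginning of the description number as a term it was called by limma (adjusted p = 0.0019), and over all alternatives its adjusted p lay between 0.0019 and 0.565. AARS differed by -1.13 (SE 0.39, adjusted p = 0.266), CBS by -1.04 (SE 0.39, adjusted p = 0.299) and CTH by -1.02 (SE 0.37, adjusted p = 0.288) in the limma fit, and in each both high-potential libraries were below both HEC-1B accelerated ones. DDIT3 had -1.11 (adjusted p = 0.386) with the same separation. Without high-potential replicate 2 these were smaller, at -0.54 for AARS, -0.47 for CBS, -0.56 for CTH and -0.55 for DDIT3. PHGDH had -1.21 (SE 0.75, adjusted p = 0.540) and ASNS -0.86 (SE 0.74, adjusted p = 0.668), and without high-potential replicate 2 these differences were 0.09 and 0.37. ATF4 itself had -0.43 (SE 0.31, adjusted p = 0.605), and -0.11 without that library.

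**Figure D5:**
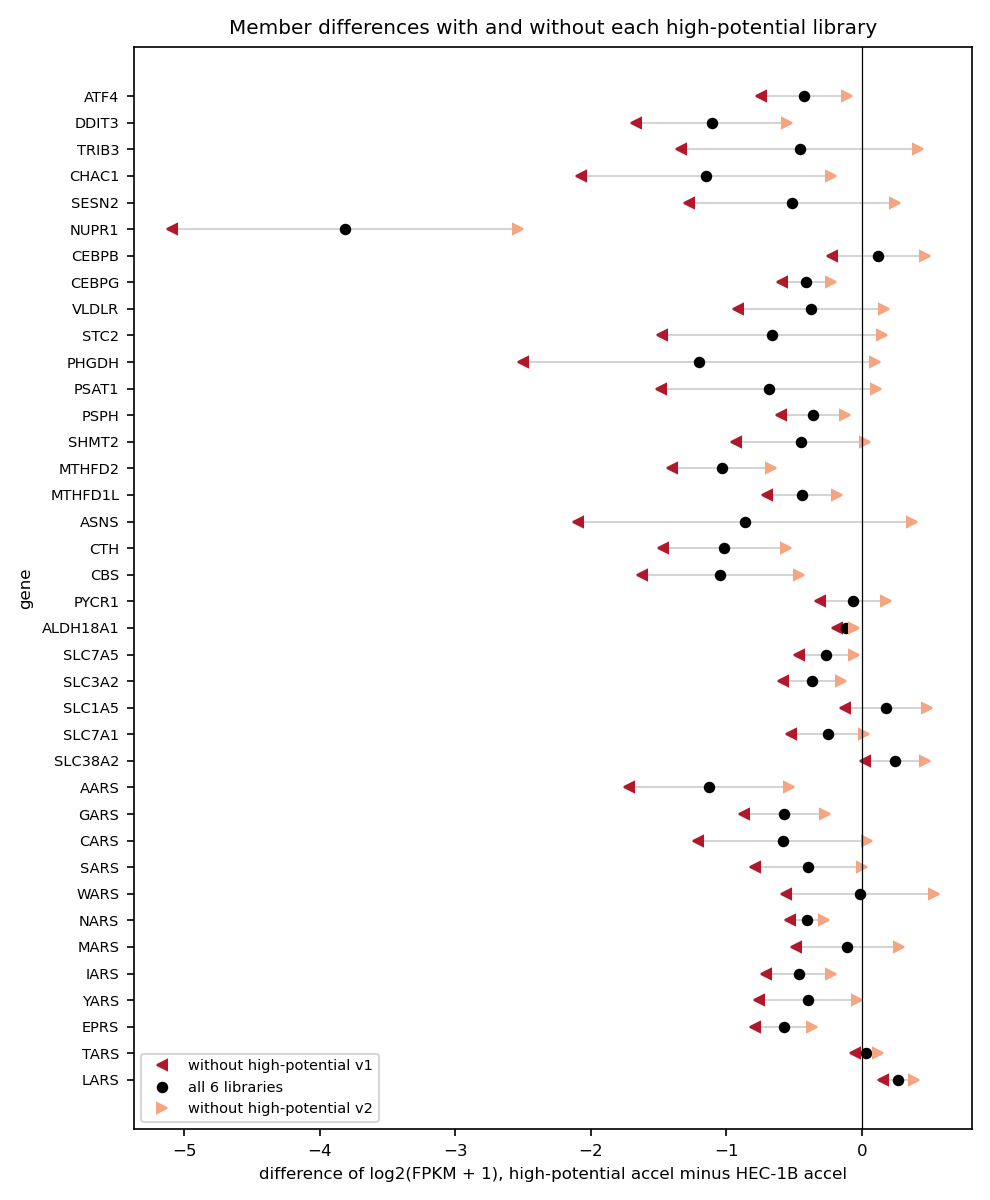
Fitted difference of log2(FPKM + 1), high-potential accelerated minus HEC-1B accelerated cells (horizontal), for the 38 members with all 6 libraries (black circles), without high-potential replicate 1 (red, left-pointing) and without replicate 2 (light, right-pointing). Without replicate 2 the points centre on a median of -0.02, while NUPR1 stays far left of the rest in each.

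Against high-to-low cells, high-potential accelerated cells had 0 of 38 members called by the limma fit, which called 97 of 12135 genes (0.799%). At an unadjusted p under 0.05, 5 members were lower in high-potential cells (NUPR1, AARS, CBS, CTH and EPRS), against 10.8% of kept genes, and 0 were higher. Both high-potential libraries lay below both high-to-low libraries in 14 members, against 26.4% of kept genes, and above them in LARS alone, against 24.7%. The member median was -0.37 (all kept genes -0.01), and without high-potential replicate 2 it was -0.05. Within the 4 libraries whose number begins alike, high-potential replicate 1 differed from high-to-low replicates 1 and 2 by member medians of -0.0052 and -0.03. Calls over all genes were 4 without high-potential replicate 2, 3 without its replicate 1, 21 when high-to-low replicate 1 was left out and 13 when its replicate 2 was. This comparison shares its high-potential libraries with the previous one, so the values are not a second observation. NUPR1 differed by -5.16 (SE 0.94, limma adjusted p = 0.0747) and was called with the number's beginning as a term (adjusted p between 0.00303 with that term and 0.358 over all alternatives). PHGDH differed by -1.62 (SE 0.75, adjusted p = 0.321), AARS by -1.14 (SE 0.39, adjusted p = 0.202) and ASNS by -1.09 (SE 0.74, adjusted p = 0.491). CBS had -1.001 (adjusted p = 0.248), CTH -0.99 (adjusted p = 0.237), DDIT3 -0.94 (adjusted p = 0.376), EPRS -0.64 (adjusted p = 0.249) and ATF4 -0.42 (adjusted p = 0.519). Without high-potential replicate 2 the difference was 0.14 in ASNS, -0.32 in PHGDH, -0.55 in AARS, -0.42 in CBS and -0.54 in CTH. It was then -0.39 in DDIT3, -0.43 in EPRS, -0.11 in ATF4 and -3.88 in NUPR1.

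Among 21 other ATF4 targets, ALDH1L2, a mitochondrial folate dehydrogenase, was called lower by limma in this comparison. It had 1.36 and 0.480 FPKM in high-potential replicates 1 and 2, against 6.03 and 6.43 FPKM in high-to-low libraries, a difference of -1.95 (SE 0.29, adjusted p = 0.0496). The HEC-1B accelerated libraries, at 3.77 and 4.295 FPKM, lay between these groups. EARS2, the mitochondrial glutamate synthetase, was also called, with 15.2 and 15.6 FPKM in high-potential replicates 1 and 2, against 38.6 and 52.3 FPKM in high-to-low libraries (-1.48, SE 0.21, adjusted p = 0.0460). Both high-potential values of EARS2 were alike. Leaving out any 1 of the 6 libraries ended both calls, with adjusted p up to 0.307 for ALDH1L2 and 0.335 for EARS2 in limma. Neither gene was called against HEC-1B accelerated cells (adjusted p = 0.112 for ALDH1L2 and 0.116 for EARS2), and no other gene of the 6 lists plotted was called in any comparison.

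Between HEC-1B accelerated and high-to-low cells limma called 0 of 38 members and 2 of 12135 genes (0.0165%). At an unadjusted p under 0.05 there were again 0 members, against 0.972% of kept genes (118 genes). The member median was -0.0056 (all kept genes -0.016), with 19 members below 0 (6420 of 12135 kept genes). Its sign depended on which HEC-1B accelerated library was left out: it was 0.15 with 13 members below 0 without HEC-1B accelerated replicate 1, and -0.21 with 28 below 0 without replicate 2. Quantile normalization gave 0.09 with 10 below 0. Both HEC-1B accelerated libraries lay below both high-to-low libraries in 4 members (NUPR1, PHGDH, PYCR1 and WARS), against 12.7% of kept genes. NUPR1 had the largest difference, -1.35 (SE 0.94), and PHGDH was 123 and 131 FPKM in HEC-1B accelerated against 171.5 and 169 FPKM in high-to-low libraries. ALDH1A1 was 26.7 and 317 FPKM in the HEC-1B accelerated libraries, against 28.4 and 9.45 FPKM in high-to-low libraries.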

How the data were processed

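The authors deposited 1 table of FPKM per library, with 1 value per gene symbol. Per the labels' protocols, a miRNeasy kit gave total RNA, SMART-Seq v4 the cDNA and Nextera the libraries. This chemistry does not mark strand, so reads of overlapping antisense genes cannot be separated. TopHat2 2.0.13, Cuffnorm 2.2.1 and the build hg19 are named in the submitters' processing notes, while the annotation and scaling are not stated in the sources at hand. Counts were not used. Relative depth came from ratios of values under 0.3 FPKM that agreed within 0.01.

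Genes reaching 1 FPKM in 2 or more libraries were kept. Their log2(FPKM + 1) values, over 3 groups of 2 libraries, went into a limma fit (limma 3.58.1, R 4.3.3) that used a variance trend. This scale understates changes of low genes. A gene was called at a two-sided Benjamini-Hochberg adjusted p under 0.05 over all kept genes. The fit was tested on simulated data with independent normal noise in each gene. Those data held no shift shared by many genes of a library, so they do not cover one. Members and lists were chosen with earlier results of these data known. All members are named. Values of all libraries are given for ATF4, DDIT3 and, in each role, the 4 members that differed most between groups or high-potential libraries. Of the other lists, called genes and both extremes are named. Alternatives changed the pseudocount, filter, scaling, variance model, terms and libraries. Sequences are from RefSeq GRCh38.p14, and synthetase symbols were matched to current ones through its synonyms.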

Additional observations from a re-analysis of the deposited data

How the results depend on the processing

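The members' shared decrease between the high-potential libraries kept its direction in 38 of 38 members under each change of scaling, and 34 remained lowest in replicate 2. The scalings were quantile normalization, median ratio scaling and equal totals without small RNA genes. Changes of pseudocount and filter could not alter these 2 counts, since they keep the order of a gene's values and all 38 members were kept. Medians over all 7 changes were -0.79 to -0.73. The 2 counts were set up after the data were seen. Groups of 2 libraries limit the fits: member medians without 1 library ranged from -0.77 to -0.020 against HEC-1B accelerated cells and from -0.82 to -0.048 against high-to-low cells.

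For high-potential against HEC-1B accelerated cells, genes called were 31 with a pseudocount of 0.1, 38 without a filter, 27 with a filter of 5 FPKM and 105 with the start of the description number as a term, and 4 to 39 without 1 library. Against high-to-low cells they were 54 with a pseudocount of 0.1, 39 without a filter, 54 with the number, and 3 to 129 without 1 library. HEC-1B accelerated against high-to-low gave 4 with a pseudocount of 0.1, 7 with the number, 7 from a fit of only those groups, and 2 to 7 without 1 library. With the number, 1 member (NUPR1) was called in each high-potential comparison.

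The labels number replicates 1 and 2 in every group without calling this a pairing. With a replicate block, 546 and 944 genes and 2 members each were called in the high-potential comparisons (limma adjusted p = 0.0369 for NUPR1 and 0.0228 for DDIT3 against HEC-1B accelerated cells, 0.0164 and 0.0235 against high-to-low cells). Correlations of replicate differences were 0.187, 0.158 and 0.281 over 12135 genes. Without 1 library, PHGDH against HEC-1B accelerated cells ranged from -2.50 to 0.094, ASNS from -2.09 to 0.37, and ASNS against high-to-low cells from -2.32 to 0.14, the positive values being without high-potential replicate 2; the cause was not tested. Without high-potential replicate 2, members with a difference below 0 numbered 20 in each high-potential comparison, against 33 and 34 with all libraries. For ALDH1L2 and EARS2, examined after the data were seen, the alternatives ended the call in 26 cases and kept it in 8 against high-to-low cells, with no change of direction, and adjusted p ranged from 0.0224 to 0.307 and from 0.0164 to 0.335 in limma.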
